A study of Rattus norvegicus with 12 samples.

Results

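The genes described here are 10 immediate early genes: Fos, Fosb, Jun, Junb, Jund, Egr1, Egr2, Egr3, Atf3 and Ier2. They were chosen by gene symbol, and 9 of the 10 had a row among the 32545 genes of the expression table. The expression of Ier2 was not analysed here. Of these 9, 8 reached a mean of 0.5 FPKM (fragments scaled to transcript length and to library depth) and were tested together with the other genes that did, 13910 in all, while Egr2 stayed under that limit and is given by its values.

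The study asked how both ventricles of the newborn heart, the left (LV) and the right (RV), respond to volume overload (VO). Sprague-Dawley rats received an arteriovenous fistula (AVF) between the abdominal aorta and the inferior vena cava, or a sham operation without one, on postnatal day 1, and the myocardium of the LV and RV free walls was taken on postnatal day 7. The 4 groups were sham LV, VO LV, sham RV and VO RV, each with 3 libraries. Neither genotype nor drug differed between the groups, every rat having been operated on, and which rat gave which library is not stated in the sources used here, so p-values measure the spread between libraries.

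Immediate early genes are transcribed within minutes of a stimulus, from factors already present in the cell, and their mRNAs are short-lived. Fos and Jun proteins pair to form the AP-1 transcription factor, Egr proteins are zinc finger transcription factors, and Atf3 is a stress-inducible factor of the ATF/CREB family. In heart muscle these genes are known to be induced quickly by stretch, by pressure and by handling of the tissue. The samples were taken days after the operation, and the part of handling at harvest in their levels was not tested.

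Promoters are shown because the Egr genes carry elements through which such signals are known to act. The promoter sequences used here, from RefSeq with build GRCr8, covered 6 of the 10 genes, and the 250 bases before the start are given for 3 of them, each 5′ to 3′ on the gene's own strand. Egr2 lies at chr20:21054442-21054691 (minus strand), Junb at chr19:40080876-40081125 (plus strand) and Jund at chr16:18769772-18770021 (minus strand). Capitals mark a CArG box, bound by serum response factor (Srf), a cAMP response element (CRE, TGACGTCA) or its cores TGACG and CGTCA, an EGR site (GCGTGGGCG), and the TATA sequence TATAAA.
Egr2: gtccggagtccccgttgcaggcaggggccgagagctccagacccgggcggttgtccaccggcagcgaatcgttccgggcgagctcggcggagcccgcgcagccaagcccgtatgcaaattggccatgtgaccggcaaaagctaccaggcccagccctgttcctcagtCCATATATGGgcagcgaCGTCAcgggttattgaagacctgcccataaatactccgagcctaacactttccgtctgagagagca
Junb: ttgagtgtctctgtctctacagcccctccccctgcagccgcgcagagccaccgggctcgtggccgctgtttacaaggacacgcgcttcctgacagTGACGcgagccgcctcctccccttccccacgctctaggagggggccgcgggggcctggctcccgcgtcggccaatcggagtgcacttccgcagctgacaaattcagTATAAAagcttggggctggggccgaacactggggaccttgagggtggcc
Jund: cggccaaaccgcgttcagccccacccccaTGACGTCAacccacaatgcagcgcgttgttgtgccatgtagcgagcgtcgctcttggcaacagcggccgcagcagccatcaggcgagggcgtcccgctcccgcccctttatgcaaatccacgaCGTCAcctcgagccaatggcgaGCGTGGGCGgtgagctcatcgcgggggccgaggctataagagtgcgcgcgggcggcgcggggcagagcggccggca

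A CArG box stood 83 bases before the start of Egr2, and 2 stood before Egr1, at 105 and 83 bases. The box was found in 1.497% of all 33469 promoters searched over the same window. A full CRE stood 221 bases before Jund and 66 bases before Ier2, against 1.59% of all promoters, and TATAAA stood 49 bases before Junb, against 8.06%. No AP-1 site (TGACTCA or TGAGTCA, both strands; 4.05% of all promoters) was found in these windows. An EGR site (GCGTGGGCG or GCGGGGGCG, both strands; 2.85% of all promoters) stood 76 bases before Jund, and the window of Fosb held none of the motifs searched. Both cores lie inside every full CRE, and 18.2% of all promoters held at least 1 core.

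The libraries held 14121713 to 16871371 reads assigned to genes, recovered from the FPKM steps, and mitochondrial genes took 14.4% to 26.2% of them. Markers of ventricular cardiomyocytes were high in all 12 libraries, with a summed level of 19463 to 30922 FPKM over 10 genes. Among the 6 RV libraries, VO RV 2 and sham RV 1 stood apart, with summed atrial cardiomyocyte markers (Myl7, Sln, Bmp10, Myl4 and Nppa) of 4559 and 1065 FPKM against 212 to 311 in the other 4. Sln, an atrial calcium pump regulator, was at 388 FPKM in VO RV 2 and 97.7 FPKM in sham RV 1, against 0 to 0.678 FPKM in the other 10 libraries of both ventricles. VO RV 2 also held the highest sum of fibroblast markers (4935 FPKM) and the lowest of cardiomyocyte markers (19463 FPKM). In such bulk tissue, fewer cells of a type and less RNA per cell cannot be told apart, and the part of tissue makeup in the results below was not tested beyond leaving these libraries out.

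In the deposited table, whose build is not named in the sources used here, Fos (ENSRNOG00000008015) is listed on chromosome 6 from 109300433 to 109303299 and Egr1 (ENSRNOG00000019422) on chromosome 18 from 27657628 to 27661429, both on the plus strand. Atf3 (ENSRNOG00000003745) is listed on chromosome 13 from 109817728 to 109849632 on the minus strand, and Egr3 (ENSRNOG00000017828) on chromosome 15 from 51756736 to 51760715 on the plus strand. Each row covers a whole gene.

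The members covered a wide range of standing levels. Jund, a Jun family member that many resting cells express, was the highest, with a mean of 128 FPKM over the 12 libraries, followed by Jun (51.4 FPKM) and Junb (11.7 FPKM). Then came Egr1 (7.92 FPKM), Atf3 (2.90 FPKM), Fos (2.07 FPKM), Fosb (0.845 FPKM), Egr3 (0.699 FPKM) and Egr2 (0.272 FPKM). The libraries of Jund, Jun and Junb did not overlap with each other, whereas from Junb downward each gene's range overlapped that of the next. FPKM is scaled to transcript length, so these levels can be compared between genes.

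**Figure D1:**
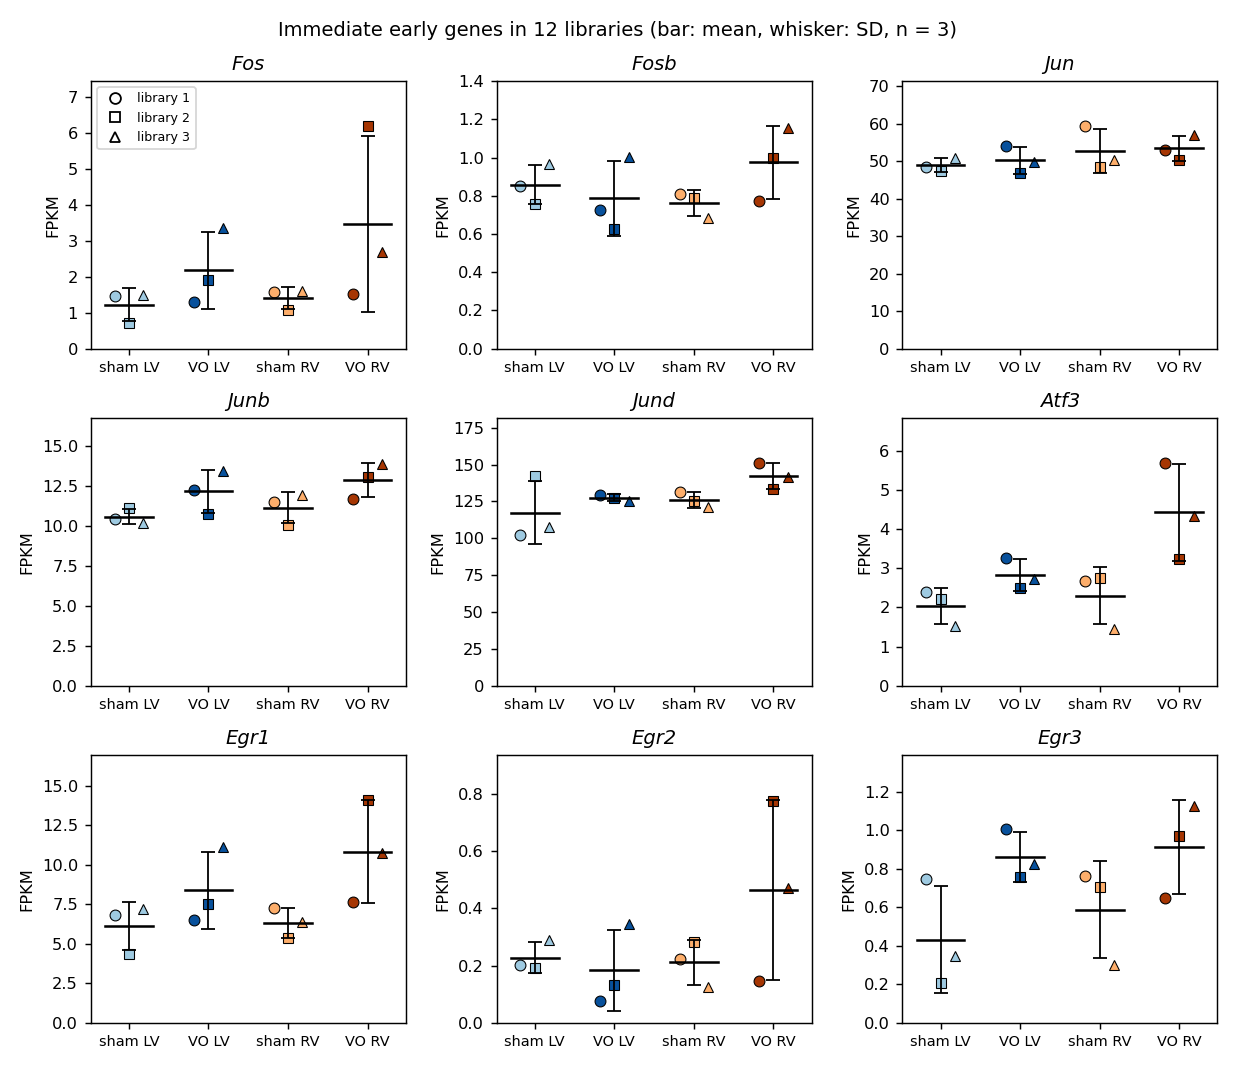
FPKM of the 9 measured genes in each of the 12 libraries, 1 panel per gene, with the 3 libraries of a group marked by shape, the group mean as a bar and the SD as a whisker. Fos, Egr1 and Egr2 were highest in VO RV library 2, Atf3 in VO RV library 1, while Jun was at 46.9 to 59.5 FPKM throughout.

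Among the Fos genes, Fos itself, the partner that makes AP-1 most active, was at 1.47, 0.699 and 1.499 FPKM in sham LV and at 1.28, 1.90 and 3.36 FPKM in VO LV. In the RV it was at 1.56, 1.06 and 1.61 FPKM after sham and at 1.52, 6.21 and 2.68 FPKM after VO. In each ventricle 2 of the 3 VO libraries lay above every sham library and the third lay within the sham range. The fold from the lowest to the highest library was 8.89, on 18 to 177 reads. Fosb, a close relative of Fos, stayed between 0.628 and 1.15 FPKM, and its groups overlapped in every comparison.

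The Jun genes, the other arm of AP-1, were far steadier than Fos. Jun ranged from 46.9 to 59.5 FPKM and Junb, which can restrain Jun, from 10.04 to 13.9 FPKM. Junb was at 10.5, 11.1 and 10.2 FPKM in sham LV against 12.3, 10.8 and 13.4 FPKM in VO LV, and at 11.5, 10.04 and 11.9 FPKM in sham RV against 11.7, 13.1 and 13.9 FPKM in VO RV, so that 2 of 3 VO libraries were above all sham libraries of the same ventricle. Jund was at 132, 125 and 121 FPKM in sham RV and at 151, 134 and 142 FPKM in VO RV, with no overlap. In the LV, the sham libraries of Jund (102, 142 and 108 FPKM) enclosed those of VO LV (130, 127 and 125 FPKM).

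Egr1, the most abundant Egr gene here, was at 6.84, 4.35 and 7.20 FPKM in sham LV and at 6.50, 7.53 and 11.2 FPKM in VO LV. In the RV it was at 7.25, 5.36 and 6.39 FPKM after sham and at 7.62, 14.1 and 10.8 FPKM after VO. All 3 VO RV libraries were thus above all 3 sham RV libraries, by a small margin for the lowest, whereas the LV groups overlapped. Egr3 was at 0.746, 0.205 and 0.347 FPKM in sham LV and at 1.01, 0.758 and 0.823 FPKM in VO LV, which did not overlap. In sham RV Egr3 was at 0.761, 0.703 and 0.299 FPKM, and in VO RV at 0.646, 0.969 and 1.13 FPKM, which did. Egr2, the gene with the CArG box printed above, was at 0.201, 0.191 and 0.290 FPKM in sham LV and 0.0765, 0.130 and 0.344 FPKM in VO LV. It was at 0.225, 0.283 and 0.125 FPKM in sham RV and 0.145, 0.776 and 0.470 FPKM in VO RV. These values rest on 4 to 45 reads per library. In a fit without the filter on low values, Egr2 differed by 0.39 ± 0.23 (SE) in the RV, with a limma p of 0.118.

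Atf3, a member of the stress response that can pair with Jun proteins, was at 2.39, 2.20 and 1.51 FPKM in sham LV and at 3.27, 2.49 and 2.74 FPKM in VO LV. In sham RV it was at 2.68, 2.76 and 1.46 FPKM, and in VO RV at 5.70, 3.24 and 4.35 FPKM. Atf3 was the only one of the 9 genes whose VO libraries were above the sham libraries without overlap in both ventricles, as held for 0.244% of all tested genes. Its highest library, VO RV 1, was near the sham level for Fos and Egr1.

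In the LV, none of the 8 tested genes was a DEG (differentially expressed gene: adjusted p under 0.05 and fold change over 1.3), where 0.0935% of all tested genes were. None passed the looser rule of an unadjusted p under 0.05 with the same fold change either, where 15.7% of all tested genes did. Of the 8 log2 differences, on log2(FPKM + 0.5), 7 were positive, with a median of 0.30 against -0.02 over all tested genes. The size was 0.60 ± 0.41 (SE, n = 3 per group) for Fos, 0.58 ± 0.27 for Egr3, 0.42 ± 0.25 for Egr1 and 0.41 ± 0.24 for Atf3. With limma, the adjusted p was 0.219 for Egr3, 0.324 for Atf3, 0.332 for Egr1 and 0.391 for Fos. The groups of Egr3 and Atf3 did not overlap, which held for 32.4% of all tested genes, and their exact two-sided permutation p was 0.1, the smallest that 3 against 3 libraries allow. The estimates for Fos and Egr1 were 0.30 and 0.21 without VO LV 3 and 0.29 and 0.20 with array weights, and that for Atf3 was 0.25 without sham LV 3. Without sham LV 1, Egr3 did pass the looser rule, at 0.81 with an unadjusted limma p of 0.0137. The estimate for Egr3 was 1.16 with voom on the recovered reads and 0.39 with a pseudocount of 1. Of 10 cardiomyocyte markers, Ryr2 (0.91), Atp2a2 (0.74), Myh6 (0.55) and Myh7 (0.45) passed that rule as higher and Tnni3 (-0.45) as lower in VO LV, with a summed level of 27935 to 30922 FPKM against 26673 to 28721 FPKM in sham LV. Of 7 endothelial markers only Emcn (-0.41) passed, and of 5 neutrophil markers only S100a8 (-0.59), both as lower. The part of all these markers in the LV values was not tested.

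**Figure D2:**
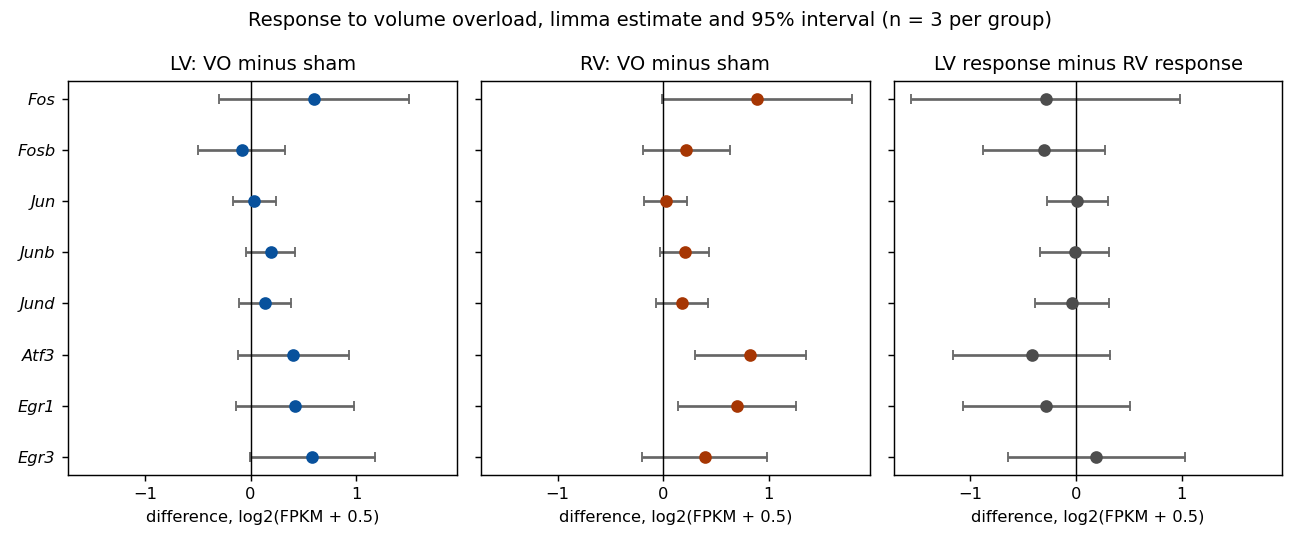
Difference on log2(FPKM + 0.5) for the 8 tested genes, with the limma 95% interval: VO minus sham in the LV, VO minus sham in the RV, and the LV difference minus the RV difference. In the RV the intervals of Atf3 and Egr1 lie above 0, and in the panel of the difference between ventricles every interval crosses 0.

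In the RV, again no member was a DEG, nor was any of the genes tested (0%). By the looser rule Atf3 and Egr1 were higher in VO RV, 2 of 8, where 4.91% of all tested genes passed. Atf3 was higher by 0.82 ± 0.24 (SE, n = 3 per group), with a limma p of 0.00537 and an adjusted p of 0.541. For Egr1 the difference was 0.70 ± 0.25, with a limma p of 0.0181 and an adjusted p of 0.555. Fos had the largest difference, 0.89 ± 0.41, with a limma p of 0.0520 and an adjusted p of 0.593. It passed the looser rule under 4 of 23 alternatives, among them quantile normalization (0.88, limma p 0.0492). All 8 differences were positive, with a median of 0.31 against 0.00 over all tested genes. That of Jun, 0.02, kept its sign in 20 of 23 alternatives. Jund, Egr1 and Atf3 did not overlap between VO RV and sham RV, which held for 12.5% of all tested genes.

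The RV values depended on the libraries named above. Without VO RV 2 and sham RV 1, the limma estimate for Atf3 was 1.12 (unadjusted p 0.00248) and that for Egr1 0.59 (p 0.0719). The estimate for Fos was then 0.48 (p 0.263). Leaving out VO RV 2 alone gave 1.01 (p 0.00218) for Atf3, 0.49 (p 0.0852) for Egr1 and 0.42 (p 0.260) for Fos. Leaving out VO RV 1 alone gave 1.29 (limma p 0.00804) for Fos, and leaving out sham RV 2 gave 0.59 (p 0.0656) for Egr1. Atf3 passed the looser rule in the RV under all 23 alternatives tried, with unadjusted limma p-values from 0.00218 to 0.0287. Of 8 macrophage markers, 3 (C1qb, Cd68 and C1qa) passed the looser rule in the RV, all higher in VO RV, with a summed level of the 8 of 88.8 to 133 FPKM against 83.5 to 95.9 FPKM in sham RV, and none of them at 0. Of 10 cardiomyocyte markers, 3 passed as lower in VO RV, Myh7 (-0.73), Ryr2 (-0.70) and Atp2a2 (-0.49). Of 7 smooth muscle and pericyte markers, only Acta2 passed, as higher (0.58). The share of all tested genes was 4.91%, and the part of these markers in the RV values was not tested.

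In sham hearts no member was a DEG between LV and RV (3.86% of all tested genes were) and none passed the looser rule (17.8% did). The largest of these 8 differences was that of Egr3, -0.23 ± 0.27 (SE), with a limma adjusted p of 0.611, and every member's sham LV and sham RV libraries overlapped, where 32.2% of all tested genes had no overlap. Of 7 endothelial markers, 3 were DEGs, all higher in sham LV. Of 6 red blood cell markers, 5 passed the looser rule as higher. Of 10 cardiomyocyte markers, 4 passed as lower and 1 as higher, and the part of these markers in the sham values was not tested. After VO, Atf3 passed the looser rule as lower in VO LV than in VO RV, by -0.54 ± 0.24 (limma p 0.0447, adjusted p 0.424), where 7.40% of all tested genes passed (1030 genes, and 722 to 1590 when 1 library was left out, the highest without VO RV 1) and 0.00719% were DEGs (1 gene, and 48 without VO RV 1). Without VO RV 1, the library with the highest Atf3, this difference was -0.36 (limma p 0.183), and it also missed the rule without VO RV 3 (p 0.0819), VO LV 2 (p 0.124), VO LV 3 (p 0.0923) or sham LV 2 (p 0.0532). Of 8 fibroblast markers, 6 passed the looser rule as lower in VO LV than in VO RV, among them Postn (-0.86), Lum (-0.70) and Dcn (-0.56), with a summed level of 2063 to 2543 FPKM against 2533 to 4935 FPKM. Of 8 macrophage markers only C1qb passed, as lower too (-0.72), and of 10 cardiomyocyte markers Myh7 (0.72), Ryr2 (0.68) and Myh6 (0.39) passed as higher. The part of all these markers in the Atf3 value was not tested. Jund was lower in each VO LV library than in each VO RV library, and a lack of overlap in either direction held for 16.1% of all tested genes.

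The response to VO was also compared between the ventricles, as the LV difference minus the RV difference. No member was a DEG in this comparison, against 4.19% of all tested genes, and none passed the looser rule, against 23.1%. The estimate for Atf3 was -0.42, with a 95% interval from -1.16 to 0.33, and that for Egr3 was 0.19, with an interval from -0.65 to 1.03. For Jun and Junb the intervals were narrow, from -0.28 to 0.30 and from -0.34 to 0.31. The interval for Fos ran from -1.56 to 0.98, so a difference of more than 1 log2 unit between the ventricles lay within it. The estimate for Atf3 was -0.18 without sham RV 3 and -0.71 without both libraries with raised atrial markers, and that for Egr3 ran from 0.012 without sham LV 2 to 0.42 without sham LV 1. The estimate for Fos, -0.29, ran from -0.68 without VO RV 1 to 0.18 without VO RV 2.

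The differences pointed the same way in both ventricles for 7 of the 8 members, Fosb being the exception, at -0.09 in the LV against 0.22 in the RV. Some of these estimates lay near 0. Jun kept its sign in 22 of 23 alternatives in the LV and in 20 of 23 in the RV, and Fosb in 21 of 22 in the LV. The mean of both responses was computed as well, a comparison added after these values had been seen. By the looser rule 4 of the 8 members passed, all higher with VO, against 1.59% of all tested genes. That share was 221 genes, and 189 to 421 when 1 library was left out, the 421 being without VO RV 3. The 683 genes behind the 4.91% of the RV likewise became 402 without VO RV 3 and 1163 without VO RV 1, and the 2185 behind the 15.7% of the LV became 1361 without VO LV 3. These members were Atf3 (0.61 ± 0.17, SE, limma p 0.00383), Egr1 (0.56 ± 0.18, p 0.00932), Fos (0.75 ± 0.29, p 0.0254) and Egr3 (0.49 ± 0.19, p 0.0262). None was a DEG, and the limma adjusted p was 0.877 for Atf3 and 0.938 for the other 3. Over 6 VO against 6 sham libraries, the exact two-sided permutation p on FPKM was 0.0108 for Atf3, 0.0173 for Egr1, 0.0195 for Egr3 and 0.0281 for Fos, taking all 12 libraries as independent. Of the 6 VO libraries, 5 were above every sham library for Egr1 and 4 for each of Atf3, Fos and Egr3. No member's VO and sham libraries were free of overlap across both ventricles, which 0.144% of all tested genes were. Junb was higher by 0.20 ± 0.07 (limma p 0.0231), under the fold limit of 1.3, and for Fosb, Jun and Jund the estimates were 0.07, 0.03 and 0.15. Fos missed the rule without VO RV 2 (0.51, limma p 0.0547), VO LV 3 (0.60, p 0.0667), sham RV 2 (0.68, p 0.0562) or sham LV 2 (0.62, p 0.0639), and Egr3 without sham LV 2, sham LV 3, sham RV 3, VO LV 1 or VO RV 3 (limma p 0.0505 to 0.0662). Egr3 also missed it with array weights (0.39, limma p 0.0556) and, at 0.33, fell under the fold limit with a pseudocount of 1. With voom on the recovered reads the estimate for Egr3 was 0.93. Without both libraries with raised atrial markers, Fos was at 0.54 (limma p 0.0658).

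**Figure D3:**
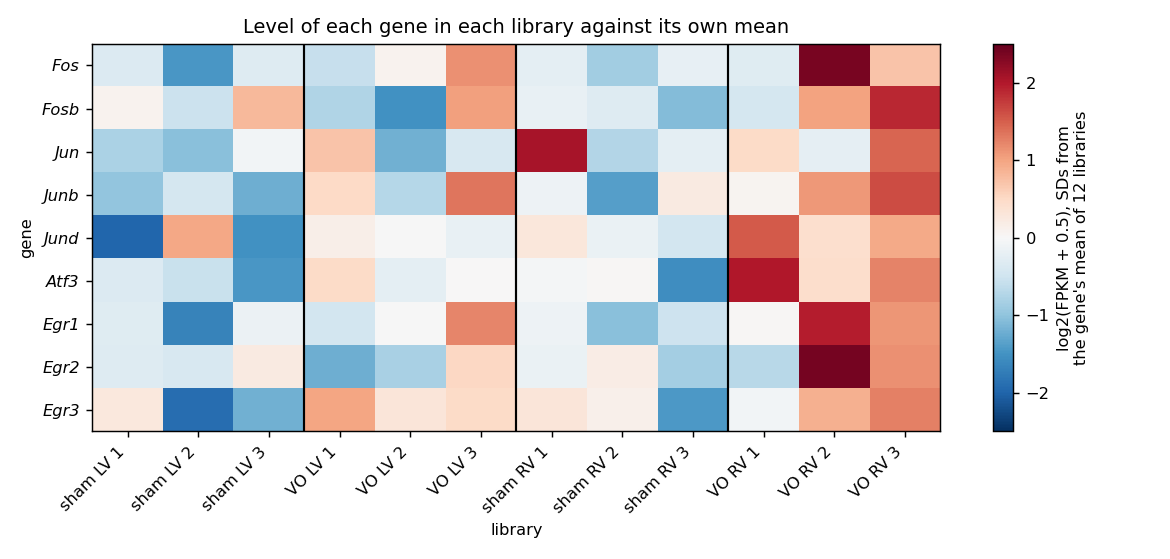
Level of each gene in each library on log2(FPKM + 0.5), in SDs from that gene's mean of the 12 libraries, with genes in rows and libraries in columns by group. VO RV 2 and VO RV 3 are red for most genes, VO RV 1 is red mainly for Atf3 and Jund, and sham LV 2 is the lowest library for Fos, Egr1 and Egr3.

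The members did not rise and fall as 1 unit. Fos and Egr1 had the most similar profiles, with Pearson's r of 0.97 over the 12 libraries and 0.95 after the group means were removed. Jund was the member least like the others, with a mean r of 0.27 with the other 7. Atf3 and Fos had an r of 0.25 over all libraries and of -0.64 within groups, and Atf3 and Egr1 had an r of -0.52 within groups. These values describe 12 libraries whose log levels share a depth and a dissection, and are given without a test. Averaged over the 8 tested genes, the standardized level was lowest in sham LV 2 (-0.83 SD) and highest in VO RV 3 (1.28 SD) and VO RV 2 (1.01 SD), with VO RV 1 at 0.41, VO LV 3 at 0.58, VO LV 1 at 0.14 and VO LV 2 at -0.41. Sham RV 1 was at 0.23, above VO LV 1 and VO LV 2, and the other 5 sham libraries were between -0.83 and -0.54.

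Fos, Egr1, Atf3 and Egr3 also had the widest spread between libraries of the same group. The within-group SD on the log2 scale was 0.57 for Fos, at percentile 93.4 of all tested genes, 0.35 for Egr1 (percentile 83.7), 0.32 for Atf3 (percentile 80.2) and 0.31 for Egr3 (percentile 79.2). The median over all tested genes was 0.19. Fosb (0.16), Jund (0.14), Junb (0.12) and Jun (0.10) lay under it, with Jun at percentile 11.3. Without VO RV 2, or any other single library, the SD of Fos was between 0.43 and 0.61. The SD of Jund was 0.061 without sham LV 2. That of Egr3 depended on the pseudocount, at 0.52 with 0.1 and 0.21 with 1 in place of 0.5. A low level adds counting error, and the tested members with the fewest reads in a library were Egr3 (9 to 50 reads), Fos (18 to 177 reads) and Fosb (38 to 71 reads).

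**Figure D4:**
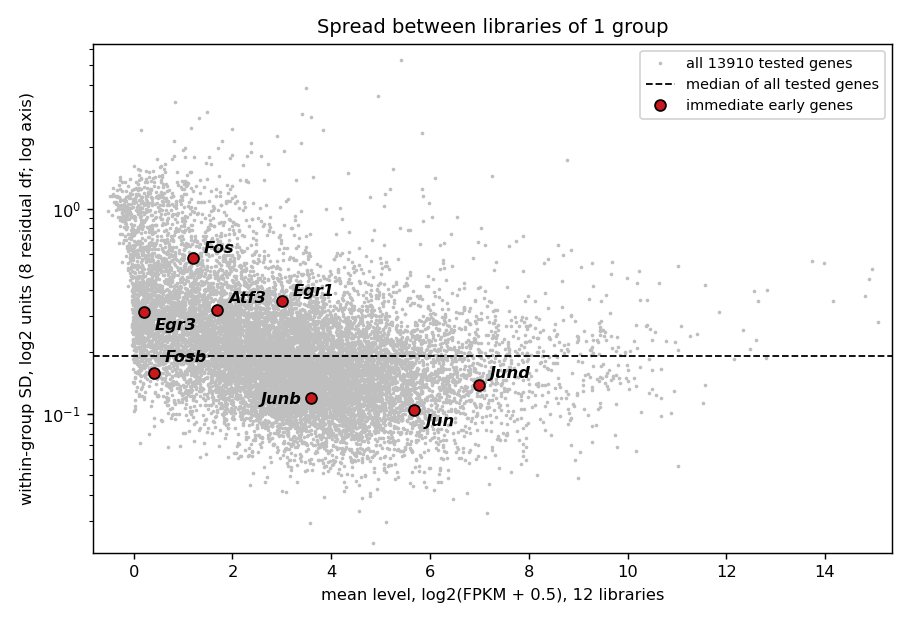
Within-group SD on log2(FPKM + 0.5), on a log axis, against the mean level of each of the 13910 tested genes (grey) and the 8 tested immediate early genes (red), with the median of all genes dashed. Fos, Egr1, Atf3 and Egr3 lie above the median of 0.19, and Fosb, Jund, Junb and Jun lie under it.

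Other immediate early genes, from a list of 50 symbols chosen with earlier results of these data known, included DEGs. Of its 44 tested genes, 12 were higher and 2 (Ier5l and Cebpd) lower in the LV by the looser rule, with a median of 0.09, where 15.7% of all tested genes passed in either direction. In the RV 9 were higher and none lower, with a median of 0.25, against 4.91% of all tested genes. The estimate was positive in both ventricles for 26 of the 44. Sik1, a salt-inducible kinase, Nr4a1, an orphan nuclear receptor, and Irs2, an insulin receptor substrate, were DEGs in the LV, where 0.0935% of all tested genes were. Without sham LV 1, sham LV 2 or any single VO LV library, no gene of the table was a DEG there, while their estimates are given with all libraries.

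Nr4a1 was at 6.26, 7.40 and 6.92 FPKM in sham LV and at 13.5, 18.4 and 14.9 FPKM in VO LV, and at 8.17, 9.96 and 7.94 FPKM in sham RV against 17.0, 18.9 and 14.2 FPKM in VO RV. Its VO libraries were above its sham libraries without overlap in both ventricles, as held for 0.244% of all tested genes. The log2 difference was 1.12 ± 0.14 (SE) in the LV, with a limma adjusted p of 0.0333. For the RV it was 0.91 ± 0.14, with an adjusted p of 0.313. Sik1 was higher by 1.49 ± 0.18 in the LV (limma adjusted p 0.0333) and by 0.80 ± 0.18 in the RV (adjusted p 0.482). Irs2 differed by 1.81 ± 0.28 in the LV, where the limma adjusted p was 0.0497, against 0.56 ± 0.28 with an adjusted p of 0.618 in the RV. In the mean of both ventricles Nr4a1 (1.01 ± 0.10, limma adjusted p 0.00711) and Sik1 (1.15 ± 0.12, adjusted p 0.00889) were the only DEGs among all tested genes, 0.0144%. Sik1 missed the adjusted threshold there without VO LV 2, VO LV 3 or VO RV 1, with adjusted p-values of 0.0516, 0.0508 and 0.0510.

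Ppp1r15a, which restarts translation after stress, was higher by 0.64 ± 0.11 in the LV and 0.40 ± 0.11 in the RV, and Ier3 by 0.43 ± 0.11 in the LV. Gadd45g, a growth arrest gene, was higher by 0.88 ± 0.19 in the RV, and Cyr61, a secreted matrix protein, by 0.65 ± 0.15. The limma adjusted p was 0.0514 for Ppp1r15a and 0.0714 for Ier3 in the LV, and 0.482 for Gadd45g and Cyr61 in the RV. The summed level of the list was 819 to 891 FPKM in sham LV and 897 to 999 FPKM in VO LV, and 808 to 857 FPKM in sham RV and 971 to 1037 FPKM in VO RV. Every VO library was thus above every sham library. Without both libraries with raised atrial markers, 13 genes of the list were higher and 1 lower in the LV, where 2264 of all tested genes passed, and 9 were higher and none lower in the RV, where 646 did.

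**Figure D5:**
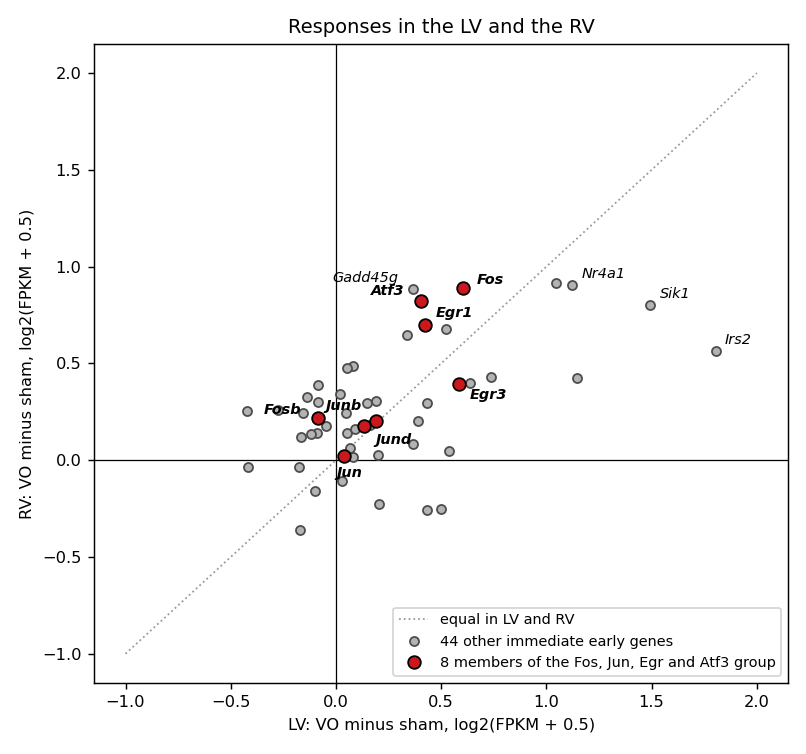
Difference between VO and sham on log2(FPKM + 0.5) in the LV (horizontal) and the RV (vertical) for the 8 tested members (red) and 44 other immediate early genes (grey), with the line of equal responses dotted. Fos, Atf3 and Egr1 lie above the line and Sik1, Irs2 and Nr4a1 beneath it, and the 2 axes rest on separate libraries.

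The 10 genes most like the mean profile of the members, by Pearson's r over the 12 libraries, included Cyr61 (0.88), Klf4 (0.84), Ctgf (0.83) and Myc (0.81), which are immediate early genes themselves. The other 6 were Mir301a (0.91), a row for a microRNA gene, Aurka (0.89), Sqle (0.84), Dnajb11 (0.82), Armcx2 (0.81) and Gprc5a (0.80). Ctgf, a secreted matrix protein, was at 35.6, 14.9 and 16.8 FPKM in sham LV and at 45.1, 35.1 and 51.4 FPKM in VO LV, where sham LV 1 lay just above VO LV 2. In the RV it was at 52.7, 30.7 and 33.5 FPKM after sham and at 87.9, 58.1 and 72.6 FPKM after VO, without overlap, as held for 12.5% of all tested genes.

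Of 19 tested feedback inhibitors, which shut the same signals down, 3 were higher in the LV by the looser rule and none lower, a share close to the 15.7% of all tested genes. They were Dusp8 (1.15 ± 0.15, SE, limma adjusted p 0.0333), Dusp5 (0.97 ± 0.19, adjusted p 0.0517), both MAP kinase phosphatases, and Zfp36 (0.38 ± 0.11, adjusted p 0.0872), which speeds the decay of short-lived mRNAs. In the RV none was higher, and Trib1 (-0.47 ± 0.13, limma adjusted p 0.536) and Dusp10 (-0.50 ± 0.22, adjusted p 0.585) were lower by that rule, which 4.91% of all tested genes passed.

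Among 28 upstream factors and kinases, 7 were higher and 1 (Rps6ka1) lower in the LV by the looser rule, where 15.7% of all tested genes passed in either direction. In the RV none was higher and 1 was lower, against 4.91%. Srf, which binds the CArG box, was at 38.2, 35.3 and 42.6 FPKM in sham LV and at 53.2, 59.2 and 77.9 FPKM in VO LV, a difference of 0.69 ± 0.13 (SE, limma adjusted p 0.0514). In sham RV and VO RV the order was the opposite: Srf was at 67.3, 64.7 and 61.5 FPKM after sham and at 58.7, 52.3 and 52.5 FPKM after VO, a difference of -0.24 ± 0.13 (limma adjusted p 0.634). The groups of Srf did not overlap in either ventricle. Map2k7, a kinase upstream of Jun kinases, differed by 0.60 ± 0.13 in the LV and by -0.42 ± 0.13 in the RV (limma adjusted p 0.0534 and 0.541). Mapk8, a Jun kinase, and Map2k4, which activates Jun kinases, were also higher in the LV by the looser rule, by 0.42 and 0.51, with limma adjusted p-values of 0.0851 and 0.127.

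Among 18 tested genes known as targets of AP-1 or Egr factors, 1 was higher and 1 lower in the LV, a smaller share than the 15.7% of all tested genes. In the RV 4 were higher, where 4.91% of all tested genes passed in either direction. Nppb, the B-type natriuretic peptide, was higher in both, from a mean of 227 to 370 FPKM in the LV (0.70 ± 0.23, SE, limma adjusted p 0.109) and from 102 to 178 FPKM in the RV (0.83 ± 0.23, adjusted p 0.536). Vegfa was lower in the LV, by -0.67 ± 0.25 (limma adjusted p 0.147). In the RV, Lgals3 (0.42 ± 0.11), Hmox1 (0.51 ± 0.15) and Timp1 (0.49 ± 0.19) were higher by the looser rule, with limma adjusted p-values of 0.536, 0.541 and 0.560. Without both libraries with raised atrial markers, 1 gene of this list passed the rule in the RV. Among 11 relatives of the AP-1 and Egr factors, only Ddit3 passed, lower in the LV by -0.49 ± 0.17 (limma adjusted p 0.119), and none passed in the RV.

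Programs that handling, low oxygen or stress hormone are known to induce were read in the same way, against the 15.7% of all tested genes that passed the looser rule in the LV and the 4.91% in the RV. Of 10 heat shock and stress genes, Bag3 was higher in the LV (0.42 ± 0.10, limma adjusted p 0.0653) and Hmox1 in the RV. Of 12 hypoxia genes, Hk2, Pdk1 and Egln3 were higher and Vegfa and Adm lower in the LV, and none passed in the RV. Of 11 glucocorticoid-induced genes, Pdk4 (2.15 ± 0.41), Klf9 (0.66 ± 0.20) and Zbtb16 (0.84 ± 0.33) were higher and Cebpd lower in the LV, with limma adjusted p-values for the first 3 of 0.0517, 0.0989 and 0.165. In the RV, Zbtb16 (-1.04 ± 0.33), Klf9 (-0.56 ± 0.20) and Klf15 (-0.49 ± 0.21) were lower by the looser rule, with limma adjusted p-values of 0.542, 0.552 and 0.579. The summed level of the glucocorticoid genes was 144 to 152 FPKM in sham LV against 170 to 197 FPKM in VO LV, and 151 to 157 FPKM in sham RV against 134 to 150 FPKM in VO RV, and its part in the members' values was not tested.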

How the data were processed

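The authors sequenced poly-A-selected RNA of both free walls, aligned it with HISAT2 2.0.5 and counted it with featureCounts 1.5.0-p3. Versions are those in the submitters' processing notes, and the build is not given in the sources used here. The deposited table holds FPKM per gene and library, made by the authors from read counts, gene length and depth. It lists each gene's position, and no member's row overlapped another row. Its FPKM came back to whole reads for 100% of values under 200 reads (tolerance 0.02).

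For the 13910 genes averaging 0.5 FPKM or more, FPKM were scaled by median-ratio size factors, and log2 values after adding 0.5 were fitted with limma 3.58.1 (R 4.3.3, eBayes with trend) in 1 model of 4 groups (n = 3 each). P-values were adjusted by Benjamini-Hochberg over all tested genes. Fold changes on this scale understate those of low genes. DEGs passed 0.05 for the adjusted p and 1.3 for the fold change, and the looser rule took the unadjusted p. The study used the same thresholds but with DESeq2, so the numbers of DEGs given here are not those it reported. Exact two-sided permutation tests on FPKM used scipy 1.17.1. The members and lists were chosen with earlier results of these data known. From each list up to 5 genes per ventricle with the smallest p past the looser rule were named (3 for stress, hypoxia, hormone and marker lists), with a few others that small counts called for, named after their values were seen. A gene that the rule selects is not reported here. Symbols with several rows (Mt1, Pfkfb4 and Tsc22d3) were left out. The fit was also run on simulated counts with changes in VO LV alone and without shifts of single libraries, so that run does not bear on such shifts. Alternatives were the scaling, pseudocount, filter, fit and each library left out.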

Additional observations from a re-analysis of the deposited data

Results flagged for a closer look

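For none of the 8 tested members did the limma test of the difference between the ventricles' responses pass the adjusted threshold, and groups of 3 libraries were not screened for single outlying libraries. Among the 41 other genes that the naming rule selects, 13 had a difference between the responses (LV minus RV, log2) with a limma adjusted p under 0.05, as did 14 of all 202 tested genes of the lists and 4.19% of all tested genes. The rule selects on the change within a ventricle, which shares its libraries with this difference, so the 13 of 41 are a description only. The 14th was Mapk9 (0.49), which the rule did not select. Of the feedback inhibitors and upstream genes these were Dusp8 (1.27), Trib1 (0.83), Srf (0.93) and Map2k7 (1.02). Of the stress and hormone genes they were Bag3 (0.62), Pdk4 (2.30), Klf9 (1.22) and Zbtb16 (1.88). Of the cardiomyocyte markers they were Ryr2 (1.61), Myh6 (0.89), Atp2a2 (1.23) and Myh7 (1.18), and of the macrophage markers C1qb (-0.92). The difference was positive for all but C1qb, which need not mean a larger change in the LV. Myh7, for example, differed by 0.45 in the LV and by -0.73 in the RV. The DEGs of this comparison among all tested genes numbered 583, and 0 to 1004 when 1 library was left out. Of these 13 genes, 0 passed with the replicate block by rat, which assumes that same-numbered LV and RV libraries of a treatment shared a rat (adjusted p 0.146 to 0.155), with the replicate block, with no filter, or without both libraries with raised atrial markers, and 0 to 13 passed when 1 library was left out. The 0 came without sham LV 1, sham LV 2, sham RV 1, sham RV 2, VO LV 2 or VO LV 3.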

How the results depend on the processing

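No member was a DEG in any comparison under any of the alternatives. The numbers of members past the looser rule moved by more than 1.5 times in these cases. In the LV, 1 member (Egr3) passed in place of 0 with quantile normalization, with no filter and with voom on the recovered reads, and 0 to 1 when 1 library was left out. In the RV, 1 to 3 passed instead of 2 when 1 library was left out, and 1 without both libraries with raised atrial markers, while the genes passing among all tested went from 683 to between 402 and 1163, and to 646. Between VO LV and VO RV, 0 instead of 1 passed with quantile normalization, a pseudocount of 0.1 or no filter, and 0 to 1 when 1 library was left out. For the mean of both ventricles, 2 to 4 passed instead of 4 when 1 library was left out, the 2 being without sham LV 2. The comparison of sham ventricles and that of the responses stayed at 0. The number of DEGs among all tested genes was far less stable: 13 in the LV, 0 to 554 when 1 library was left out (0 without sham LV 1, sham LV 2 or any 1 VO LV library), 704 with array weights and 341 with voom; 537 between the sham ventricles and 0 to 872 when 1 library was left out, 0 with the replicate block by rat, 3 with the replicate block and 1321 with array weights. The cause of these shifts was not tested. Between same-numbered libraries, deviations from the group means had correlations between -0.22 and 0.12, which cannot decide whether such libraries shared a rat. With a replicate block 0 members passed in the LV, 2 in the RV and 3 genes among all tested were DEGs in the LV. Depth limits Egr2 and Egr3 most, with 4 to 45 and 9 to 50 reads per library.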
